A study of Mus musculus with 20 samples.

Results

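The 48 genes described here are cell cycle genes of the mouse, measured in the phalanges (the bony segments) of embryonic digits 1 and 2. They were chosen by symbol, 19 for their work in DNA replication during S phase and 29 for their work in mitosis, and rows that shared a symbol were summed. They are 48 of the 23990 genes that could be joined between the deposited count tables of embryonic days 17 and 16 (E17 and E16). All 48 passed the filter on low counts, which left 14872 genes for testing.

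Messenger RNA came from 20 libraries, 10 from E17 and 10 from E16. At each stage the hindlimb and the forelimb gave 5 libraries each, 2 from digit 1 (its distal and proximal phalanges) and 3 from digit 2 (distal, middle and proximal). Tissue was pooled over 10 embryos per library at E17 and over 20 at E16. The labels name no strain, genotype or treatment that differs between groups. No combination of stage, limb and phalanx was replicated, so every p-value rests on agreement between libraries matched in the other factors, and stage cannot be told apart from pool size, the embryos pooled or the count table. Whether libraries of the same stage shared embryos is not given in the labels.

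Counts per library ranged from 75278309 to 111204552 at E17 and from 70871735 to 77361898 at E16. The libraries hold whole phalanges with skin: 10 epidermal markers summed to between 13400 and 67500 CPM (counts scaled to library size) over the 20 libraries, against 187 to 1590 CPM for 10 cartilage markers. Bone markers were also present, at 2300 to 9940 CPM over 6 genes, although the late osteoblast gene Bglap had no counts in 16 of 20 libraries. Most of that sum was Col1a1 (2110 to 9880 CPM), while Runx2, for example, had 7.44 to 111 CPM. The sum is therefore not read as more bone than cartilage. In such bulk samples, fewer cells of a type and less RNA per cell cannot be told apart.

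In dividing cells the MCM helicase is loaded onto replication origins in G1, and cyclin E with the E2F transcription factors drives entry into S phase. Cyclin B with the kinase Cdk1 then drives entry into mitosis, and the anaphase-promoting complex (APC/C) ends it by marking cyclin B and other proteins for destruction. Transcripts of replication genes peak around the G1/S boundary and those of mitotic genes in G2 and M. In the growing digit, dividing cells lie in the cartilage, the perichondrium and the basal skin, and division stops as cells mature.

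Promoters are shown to describe both kinds of member, and members of a kind did not move alike in every comparison. E2F factors bind sites searched here with the word TTCCCGC, with a variant that reads TTGGCGC and with another variant that reads TTCGCGC. The MuvB complex with FOXM1 or B-MYB acts on mitotic genes through the cell cycle genes homology region (CHR, TTTGAA), often next to CCAAT boxes. The promoters are RefSeq sequences of build GRCm38.p6, searched on both strands over 250 bases before the start, and 39 of the 48 members had an entry. TTTGAA was found for 9 of 24 mitotic members (37.5%) and 3 of 15 replication members (20.0%), beside 13.4% of the tested genes. CCAAT was found for 20 mitotic members (83.3%) and 10 replication members (66.7%), beside 40.4% of the tested genes. An E2F word was found for 5 mitotic members (20.8%) and 6 replication members (40.0%), beside 13.4% of the tested genes. A match is a description of the letters and not evidence of binding.

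The last 130 bases before the start are printed for 4 mitotic members that carry TTTGAA or its complement TTCAAA there and for 2 replication members that carry an E2F word there. Capitals mark the searched words on either strand, and the E2F words of Mcm6 overlap each other. Cdk1 is the kinase that starts mitosis (chr10:69352913-69353042, minus strand), Cdc20 activates the APC/C (chr4:118437344-118437473, minus), Top2a is the topoisomerase that untangles chromosomes (chr11:99024190-99024319, minus) and Kif11 is the motor that separates the spindle poles (chr19:37376252-37376381, plus). Mcm6 is a subunit of the replicative helicase (chr1:128359706-128359835, minus) and Rrm1 is the large subunit of ribonucleotide reductase (chr7:102441565-102441694, plus).
Cdk1: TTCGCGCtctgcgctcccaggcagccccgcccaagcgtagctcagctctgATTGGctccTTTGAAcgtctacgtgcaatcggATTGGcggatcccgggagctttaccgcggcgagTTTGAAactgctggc
Cdc20: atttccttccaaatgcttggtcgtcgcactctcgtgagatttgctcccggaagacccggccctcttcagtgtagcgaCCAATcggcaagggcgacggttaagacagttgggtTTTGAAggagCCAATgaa
Top2a: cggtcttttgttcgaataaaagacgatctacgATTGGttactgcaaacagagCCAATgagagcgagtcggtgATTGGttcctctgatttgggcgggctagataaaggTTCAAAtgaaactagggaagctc
Kif11: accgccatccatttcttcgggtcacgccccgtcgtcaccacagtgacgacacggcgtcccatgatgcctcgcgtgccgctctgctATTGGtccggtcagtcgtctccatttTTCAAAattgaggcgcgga
Mcm6: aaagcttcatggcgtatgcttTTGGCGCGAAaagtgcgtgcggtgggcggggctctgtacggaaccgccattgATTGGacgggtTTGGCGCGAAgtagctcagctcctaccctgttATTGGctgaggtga
Rrm1: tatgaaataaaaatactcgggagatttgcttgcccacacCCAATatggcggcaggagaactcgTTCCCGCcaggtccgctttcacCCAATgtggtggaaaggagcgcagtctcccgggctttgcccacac

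Replication and mitotic transcripts were both higher in the hindlimb than in the forelimb, and they parted between the stages and along the digit. Over the 19 replication members the mean log2 CPM was 5.78 ± 0.087 in hindlimb libraries and 5.53 ± 0.143 in forelimb libraries (SD, n = 10 each). Over the 29 mitotic members it was 6.17 ± 0.181 in hindlimb libraries and 5.90 ± 0.204 in forelimb libraries. Between the stages the mitotic mean was 5.88 ± 0.183 at E17 and 6.19 ± 0.17 at E16, while the replication mean was 5.65 ± 0.163 at E17 and 5.66 ± 0.193 at E16 (n = 10 each). Along the digit the replication mean was 5.54 ± 0.19 in distal phalanges and 5.74 ± 0.111 in proximal phalanges, and the mitotic mean 5.99 ± 0.313 in distal and 6.04 ± 0.148 in proximal phalanges (n = 8 each). These list means are descriptions and carry no test.

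**Figure D1:**
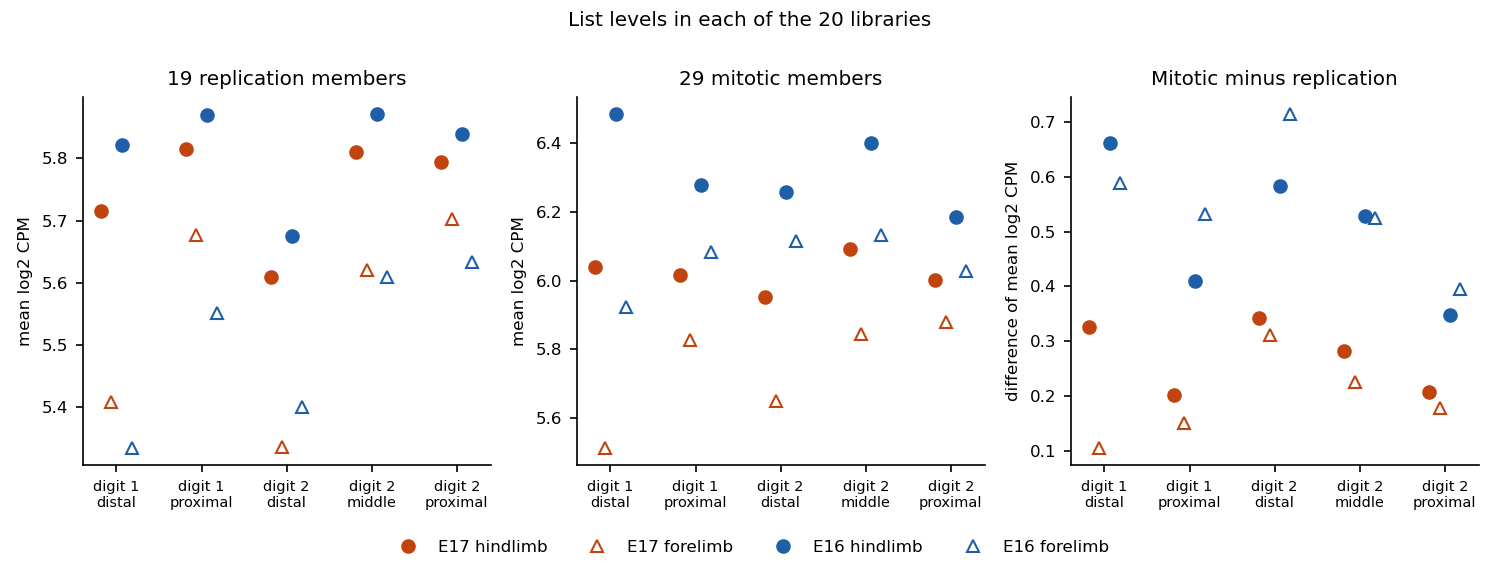
Mean log2 CPM of the 19 replication members, of the 29 mitotic members, and the difference of both means, in each of the 20 libraries by phalanx (1 symbol per library, red for E17, blue for E16, filled for hindlimb, open for forelimb). Hindlimb symbols lie above the forelimb symbols of the same stage and phalanx in the first and second panels, and in the third the E17 libraries (0.104 to 0.342) lie just below the E16 libraries (0.347 to 0.715), a separation that is lost with medians over the members (up to 0.451 at E17, from 0.428 at E16).

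The limb comparison asked whether the hindlimb and the forelimb differ in these genes at matched stage and phalanx. Of the replication members 16 of 19 rose in the hindlimb and none fell, and of the mitotic members 22 of 29 rose and none fell, where 9.91% of all tested genes were called higher in the hindlimb (edgeR quasi-likelihood test, adjusted p under 0.05). Of all 14872 tested genes 1669 were called lower in the hindlimb. The median log2 fold change was 0.29 for the replication members and 0.28 for the mitotic members, against -0.01 over all tested genes. The differences were small, from 0.03 to 0.36 on the log2 scale in the replication list and from 0.11 to 0.49 in the mitotic list. Matched pair by matched pair, the list mean was higher in the hindlimb in 10 of 10 pairs for both lists.

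Among the licensing genes 8 of 9 rose, all but the loader Cdc6. Mcm5, a helicase subunit, ranged from 111 to 140 CPM in the hindlimb (median 124) and from 78.3 to 122 CPM in the forelimb (median 102). Its log2 fold change was 0.34 ± 0.06 (SE, edgeR adjusted p = 0.000845), and it was higher in 10 of 10 pairs. Mcm2, another subunit, had 96.2 to 132 CPM in the hindlimb (median 120) and 78.8 to 112 CPM in the forelimb (median 95.2). The Mcm2 libraries of the 2 limbs overlapped, yet every pair pointed the same way (0.33 ± 0.06, edgeR adjusted p = 0.000814). Mcm6 rose least of the called replication members, by 0.16 ± 0.04 on the log2 scale in 8 of 10 pairs.

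All 3 fork proteins and all 3 genes of nucleotide supply rose. Gins2, a subunit of the GINS complex that travels with the helicase, had the highest fold change of the replication list at 0.36 ± 0.06 (edgeR adjusted p = 0.00125). It ranged from 13.1 to 25.4 CPM in the hindlimb (median 19.4) and from 9.32 to 21.5 CPM in the forelimb (median 15.9), with overlap between the limbs over all libraries and within each stage. Pcna, the sliding clamp, ranged from 147 to 184 CPM in the hindlimb (median 164) and from 115 to 178 CPM in the forelimb (median 144), and it was higher in 10 of 10 pairs (0.21 ± 0.04). Tyms, which makes thymidylate, separated the limbs fully. It had 46.6 to 53.4 CPM in the hindlimb (median 51.8) and 35.5 to 43.7 CPM in the forelimb (median 40.2), so all 10 hindlimb libraries lay above all 10 forelimb libraries (0.35 ± 0.04, edgeR adjusted p = 1.99e-05). Within a stage, 4.69% (E16) and 1.32% (E17) of all tested genes lay fully higher in the hindlimb. The share over all 20 libraries was not counted, here or for the members below.

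The G1/S regulators were mixed, with 2 of 4 called. Ccne1 (cyclin E1) and E2f1 rose, while Ccne2 (cyclin E2) had 11.9 to 23 CPM in the hindlimb (median 17.9) and 12.1 to 22.4 CPM in the forelimb (median 17.1), a log2 fold change of 0.03 ± 0.09 (edgeR adjusted p = 0.849). E2f8, an atypical E2F that represses, had 22.8 to 33.7 CPM in the hindlimb (median 28.8) and 20.1 to 36.8 CPM in the forelimb (median 27.6). Its limbs overlapped throughout (0.08 ± 0.06, edgeR adjusted p = 0.374).

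All 8 G2/M regulators rose in the hindlimb, by 0.26 to 0.44 on the log2 scale. Cdk1 had 77.2 to 91.9 CPM in the hindlimb (median 83.8) and 58.3 to 76.6 CPM in the forelimb (median 64.2). Its limbs did not overlap, and the log2 fold change was 0.35 ± 0.04 (edgeR adjusted p = 9.02e-05). Plk1, a kinase of mitotic entry and spindle assembly, ranged from 58.3 to 78.5 CPM in the hindlimb (median 68.2) and from 39.2 to 60.6 CPM in the forelimb (median 52.2), and rose by 0.44 ± 0.08 in 10 of 10 pairs. The other 6 are cyclins A2, B1 and B2, the kinase Aurka and the transcription factors Foxm1 and Mybl2.

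Of the spindle checkpoint and APC/C genes 4 of 6 rose. Cdc20 had 79 to 97.6 CPM in the hindlimb (median 89.2) and 48.7 to 78 CPM in the forelimb (median 67.3), with all hindlimb libraries above all forelimb libraries (0.40 ± 0.07, edgeR adjusted p = 0.000739). Mad2l1, a checkpoint protein that holds Cdc20 in check, was at 0.13 ± 0.07 and was not called. Among the kinetochore and chromosome passenger genes 3 of 5 rose, with the largest fold change of all 48 members in Cenpa, the histone H3 variant of centromeres. Cenpa had 47 to 60.7 CPM in the hindlimb (median 53.1) and 29.3 to 46.4 CPM in the forelimb (median 39.5), again without overlap (0.49 ± 0.06, edgeR adjusted p = 0.000106). Cenpe, the kinetochore motor, overlapped throughout, at 0.15 ± 0.09 (edgeR adjusted p = 0.275).

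Spindle assembly (3 of 4) and cytokinesis genes (4 of 4) also rose, but neither of the mitotic chromosome genes did. Mki67, the coat protein of mitotic chromosomes known as the proliferation marker Ki-67, had 181 to 480 CPM in the hindlimb (median 264) and 130 to 427 CPM in the forelimb (median 246), 0.11 ± 0.11 (edgeR adjusted p = 0.492). Top2a had 258 to 519 CPM in the hindlimb (median 337) and 179 to 496 CPM in the forelimb (median 302), 0.19 ± 0.07 (edgeR adjusted p = 0.0693). The wide spread of both genes within a limb came with their stage difference, and Top2a was called with DESeq2 (adjusted p = 0.0439).

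**Figure D2:**
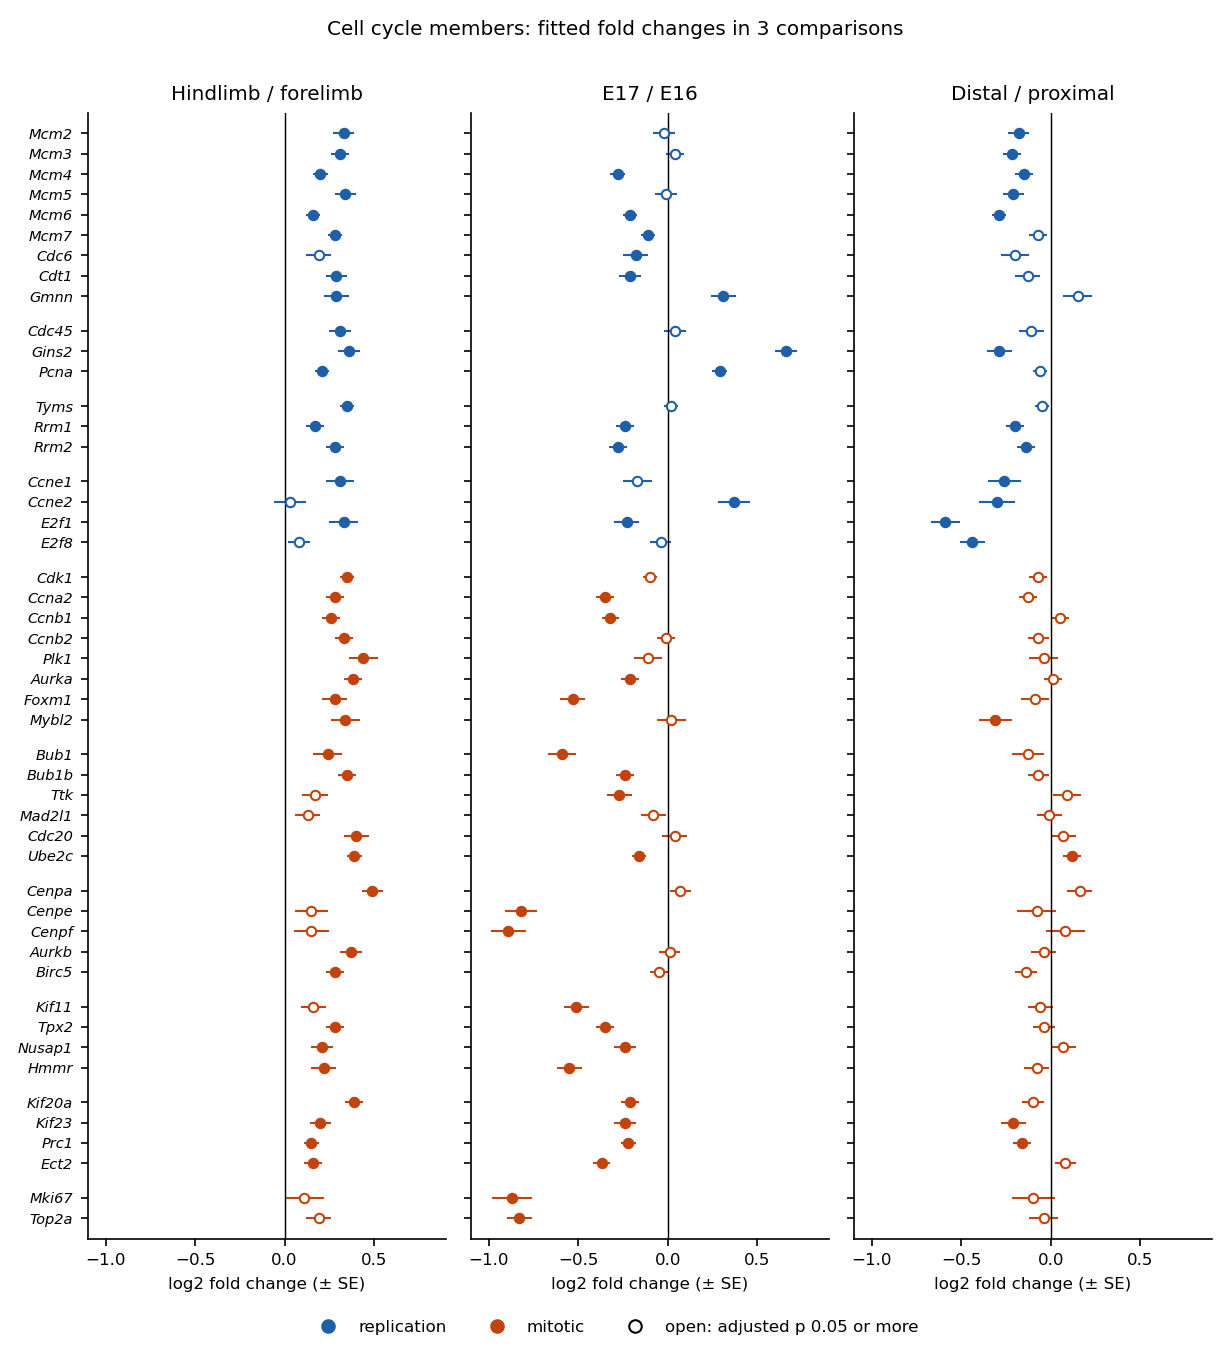
Fitted log2 fold changes with standard errors of the 48 members for hindlimb over forelimb, E17 over E16 and distal over proximal, grouped by role (blue replication, red mitotic; filled where the edgeR adjusted p was under 0.05, open otherwise). Every point of the limb panel lies above 0, the stage panel spreads from -0.89 to 0.66, and in the position panel the median is -0.20 for replication and -0.06 for mitotic members.

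The limb difference was seen at both stages. Within E16, 14 replication and 16 mitotic members were higher in the hindlimb, where 11.4% of all tested genes were called higher. Within E17, 1 replication member and 8 mitotic members were higher, where 0.646% of all tested genes were called higher. The E17 log2 fold changes were 0.12 to 0.32 (median 0.20) in the replication list and 0.13 to 0.38 (median 0.28) in the mitotic list. At E16 they were -0.07 to 0.47 (median 0.36) and -0.01 to 0.60 (median 0.25). The median over all tested genes was -0.01 at both stages. The 9 members called within E17 were Tyms, Cdk1, Ccna2, Ccnb2, Aurka, Bub1b, Ube2c, Cenpa and Kif20a, and a fit on the E17 libraries alone called 5. Counted without a fit, all 5 hindlimb libraries lay above all 5 forelimb libraries for 9 of 19 replication and 12 of 29 mitotic members at E16, where 4.69% of all tested genes did so. At E17 they did so for 1 of 19 replication members, Tyms, and for 14 of 29 mitotic members, where 1.32% of all tested genes did so.

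The fewer replication calls at E17 were not matched by a called difference between the stages. The stage-by-limb interaction called none of the 48 members (edgeR, lowest adjusted p = 0.313), with 5 replication and 2 mitotic members at an unadjusted p under 0.05. It called 0 of all 14872 tested genes in either direction. It therefore cannot set the members apart from other genes or show that the limb difference was equal at both stages. DESeq2 was not run for interactions. Pcna, for example, had an interaction of -0.17 ± 0.07 and Mcm2 of -0.24 ± 0.10 on the log2 scale, both with a smaller limb difference at E17.

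The size of the limb difference varied with the phalanx. It was largest in the distal phalanx of digit 1 at both stages, where the replication mean was higher in the hindlimb by 0.31 at E17 and 0.49 at E16 and the mitotic mean by 0.53 at E17 and 0.56 at E16. In the proximal phalanx of digit 2 it was smaller, 0.09 at E17 and 0.21 at E16 for the replication mean and 0.12 at E17 and 0.16 at E16 for the mitotic mean. The interaction of limb with position called no member (edgeR, lowest adjusted p = 0.0975), with 3 replication and 10 mitotic members at an unadjusted p under 0.05. Of all 14872 tested genes it called only 118 higher and 138 lower, so the lack of member calls is near that share. Without the E16 forelimb distal phalanx of digit 1, 18 mitotic members rose in the hindlimb in place of 22, and the replication count stayed at 16.

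Of 27 further replication genes 19 rose in the hindlimb and none fell (median 0.24), led by Tk1, thymidine kinase (0.37 ± 0.06), and Chaf1a, a subunit of the chromatin assembly factor (0.33 ± 0.06). Of 32 further mitotic genes 22 rose and none fell (median 0.23), led by the phosphatase Cdc25c (0.49 ± 0.07) and the chromokinesin Kif22 (0.44 ± 0.07). Beside both counts, 9.91% of all tested genes were called higher. The inhibitors of cyclin-dependent kinases did not move the same way: of 6 measured none rose, and Cdkn1a (p21) fell by 0.19 ± 0.06 (edgeR adjusted p = 0.0484). Among G1 cyclins and their kinases Cdk4 (0.34 ± 0.06) and Cdk2 (0.13 ± 0.04) rose and Cdk6 fell by 0.22 ± 0.04. Of 17 genes of the retinoblastoma, E2F and MuvB families 4 rose and 2 fell, with E2f7 at 0.19 ± 0.06 and E2f4 at 0.15 ± 0.04 highest and the pocket protein Rbl2 (-0.22 ± 0.04) and the MuvB subunit Lin9 (-0.21 ± 0.06) lowest among those called.

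Markers of cell types moved with the limb as well. Of 10 cartilage markers 6 rose and 1 fell in the hindlimb, with summed levels of 295 to 1590 CPM in the hindlimb and 187 to 1030 CPM in the forelimb. Of 6 tendon markers 4 fell (260 to 1250 CPM in the hindlimb, 388 to 1510 CPM in the forelimb). Epidermal markers overlapped, 1 of 10 rising (15700 to 46500 CPM in the hindlimb, 13400 to 67500 CPM in the forelimb), and 0 of 7 erythroid markers were called. Their part in the limb result was not tested.

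**Figure D3:**
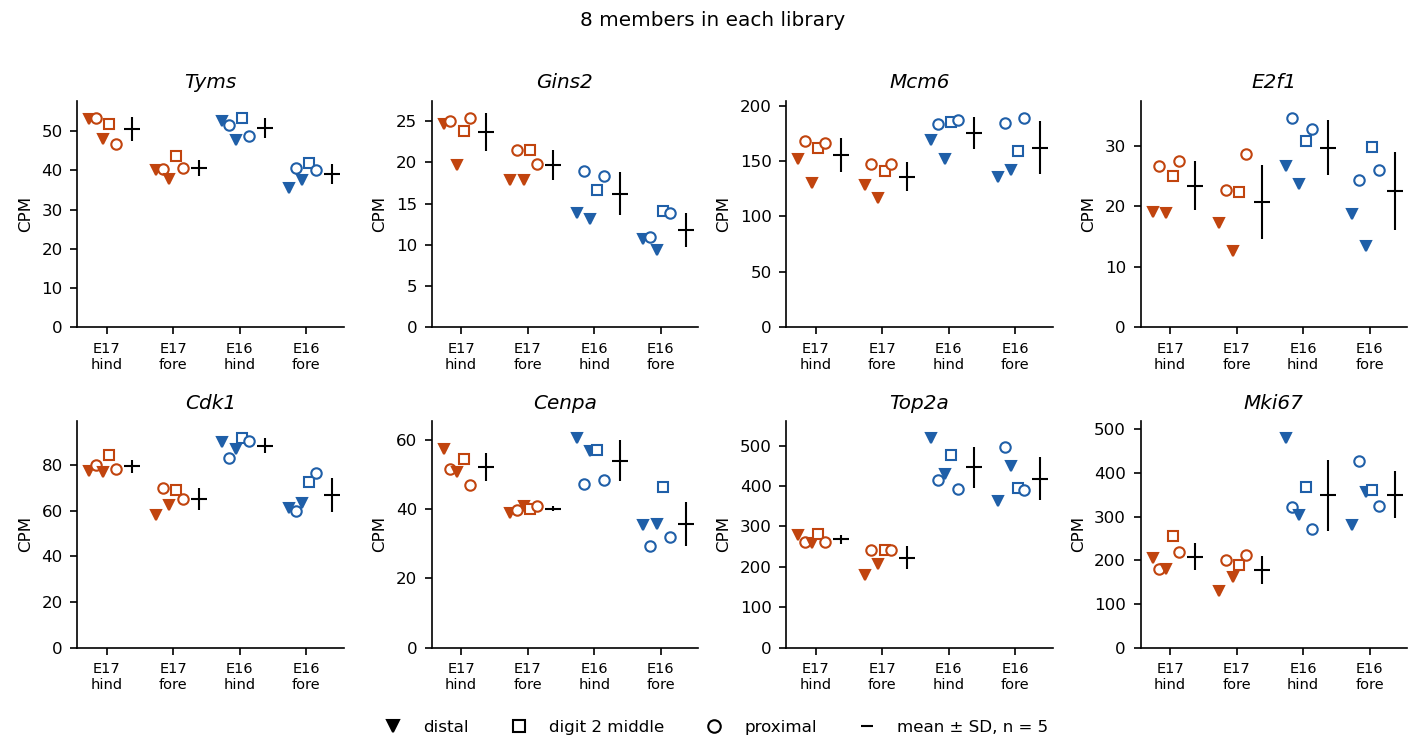
TMM-scaled CPM of 8 members in each library, in E17 hindlimb, E17 forelimb, E16 hindlimb and E16 forelimb from left to right, with the mean and SD of 5 libraries beside each group (filled triangles distal, squares digit 2 middle, circles proximal). Tyms, Cdk1 and Cenpa separate by limb at both stages, Top2a and Mki67 separate by stage, Gins2 lies higher at E17, and E2f1 lies lowest in distal phalanges.

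Between the stages the mitotic transcripts were lower at E17 and the replication transcripts were divided. Of 29 mitotic members 20 fell at E17 and none rose, where 33.6% of all tested genes fell. Of 19 replication members 8 fell and 4 rose, where 32.2% of all tested genes rose. The median log2 fold change was -0.24 in the mitotic list and -0.04 in the replication list, against -0.01 over all tested genes. The mitotic count is above the background share of lower genes. In this fit the replication counts lay nearer to the shares of all tested genes. Their split is described below by gene and was not tested as a trait of the list.

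The mitotic members with the largest falls did not overlap between the stages. Mki67 had 130 to 256 CPM at E17 (median 194) and 271 to 480 CPM at E16 (median 340), a log2 fold change of -0.87 ± 0.11 (edgeR adjusted p = 2.56e-06). Top2a had 179 to 281 CPM at E17 (median 250) and 362 to 519 CPM at E16 (median 423), -0.83 ± 0.07 (edgeR adjusted p = 2.9e-08). All 10 E17 libraries of both genes lay below all 10 E16 libraries. Cenpf, a large protein of the outer kinetochore, fell most of all members, with 45.1 to 78.8 CPM at E17 (median 62) and 89.3 to 154 CPM at E16 (median 111), -0.89 ± 0.10 (edgeR adjusted p = 4.7e-07). The other members without overlap were Cenpe, the checkpoint kinase Bub1, the hyaluronan-mediated motility receptor Hmmr, which binds the spindle, Foxm1 and Kif11, which fell by 0.51 to 0.82 on the log2 scale. The share of all tested genes that separate over all 20 libraries was not counted. Within a limb, 14.3% (hindlimb) and 13.4% (forelimb) of all tested genes lay fully lower at E17.

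By role, all 4 spindle assembly genes, all 4 cytokinesis genes and both mitotic chromosome genes fell. Of the G2/M regulators 4 of 8 fell, of the spindle checkpoint and APC/C genes 4 of 6, and of the kinetochore and chromosome passenger genes 2 of 5. Cdk1 itself was at -0.10 ± 0.04 (edgeR adjusted p = 0.067), with 58.3 to 84.3 CPM at E17 (median 73.5) and 59.8 to 91.9 CPM at E16 (median 79.9). Cdc20 (0.04 ± 0.07), Cenpa (0.07 ± 0.06) and Mybl2 (0.02 ± 0.08), the B-MYB factor that acts with MuvB, had the highest values of the mitotic list, and their stages overlapped throughout.

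The replication members that rose were Gins2, Ccne2, Gmnn and Pcna. Gins2 had 17.8 to 25.4 CPM at E17 (median 21.5) and 9.32 to 19 CPM at E16 (median 13.9), higher in 10 of 10 pairs (0.66 ± 0.06, edgeR adjusted p = 1.16e-07). Pcna had 152 to 184 CPM at E17 (median 172) and 115 to 160 CPM at E16 (median 141), 0.29 ± 0.04 (edgeR adjusted p = 3.71e-06). Ccne2 rose by 0.37 ± 0.09 and Gmnn, geminin, which blocks relicensing by holding Cdt1, by 0.31 ± 0.07, each in 9 of 10 pairs. The E17 table alone lists a Pcna pseudogene copy, with 1917 counts against 139931 for Pcna, so reads could be split between them at E17 only to that small degree.

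Those that fell belonged to licensing, nucleotide supply and G1/S control. Mcm4 had 90.9 to 121 CPM at E17 (median 115) and 113 to 160 CPM at E16 (median 132), lower in all 10 pairs (-0.28 ± 0.04, edgeR adjusted p = 1.09e-05). Rrm2, the small subunit of ribonucleotide reductase, had 52.8 to 79.6 CPM at E17 (median 71) and 66.3 to 98.6 CPM at E16 (median 86.5), -0.28 ± 0.05. Rrm1 had 138 to 204 CPM at E17 (median 184) and 168 to 232 CPM at E16 (median 218), -0.24 ± 0.05. The stages of these 3 genes overlapped, but no pair was higher at E17. The other 5 were Mcm6, Mcm7, Cdc6, Cdt1 and E2f1, at -0.23 to -0.11. Tyms (0.02 ± 0.04) and Mcm2 (-0.02 ± 0.06) were not called.

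Set against each other within a library, the mitotic members stood lower relative to the replication members at E17. The mitotic mean exceeded the replication mean by 0.233 ± 0.08 on the log2 CPM scale at E17 and by 0.529 ± 0.118 at E16 (SD, n = 10 each), and it was lower at E17 in 10 of 10 pairs. The ranges met almost edge to edge, at 0.104 to 0.342 at E17 and 0.347 to 0.715 at E16. They overlapped when medians over the members were taken (0.109 to 0.451 at E17, 0.428 to 0.864 at E16) and when each member was scaled to unit SD (-0.75 to 0.006 at E17, -0.205 to 1.154 at E16), and under both the balance was still lower at E17 in 10 of 10 pairs. As a share of counts, the mitotic members took 0.197% ± 0.029 at E17 and 0.28% ± 0.032 at E16, and the replication members 0.133% ± 0.018 at E17 and 0.149% ± 0.02 at E16. By limb the balance was 0.389 ± 0.156 in the hindlimb and 0.373 ± 0.21 in the forelimb, with overlapping ranges, and the sign of the difference depended on the measure (0.02 with means, -0.07 with medians over the members, -0.02 scaled to unit SD). These differences carry no test, and levels are not compared between single genes because CPM is not per length.

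**Figure D4:**
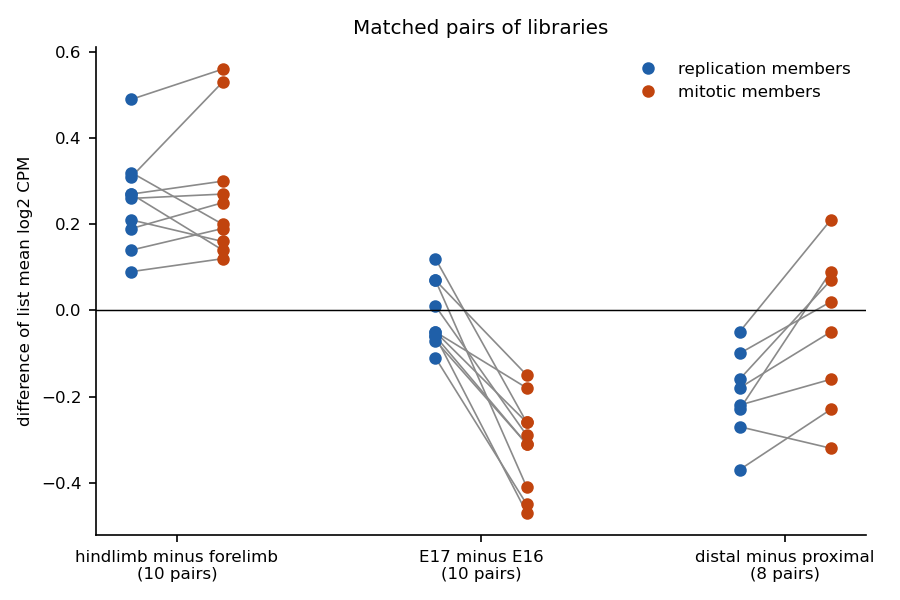
Difference of the list mean log2 CPM in each matched pair of libraries, for hindlimb minus forelimb and E17 minus E16 (10 pairs each) and distal minus proximal (8 pairs), with the replication and the mitotic mean of a pair joined by a line. Both lists lie above 0 in every limb pair, the mitotic mean lies below 0 in every stage pair while the replication mean lies between -0.11 and 0.12, and the replication mean lies below 0 in every position pair.

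The lower mitotic levels at E17 were seen in both limbs. Within the hindlimb 18 mitotic members fell at E17 and none rose, with 3 replication members higher and 9 lower, where 24.4% of all tested genes rose and 25.6% fell. Within the forelimb 19 mitotic members fell and none rose, with 3 replication members higher and 4 lower, where 28.4% of all tested genes rose and 29.1% fell. All 5 E17 libraries lay below all 5 E16 libraries for 13 of 29 mitotic and 5 of 19 replication members in the hindlimb, where 14.3% of all tested genes did so. In the forelimb they did so for 14 of 29 mitotic and 0 of 19 replication members, where 13.4% of all tested genes did so.

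Transcript length moved with stage over the whole table, and it touches this result. Among 14390 tested genes with a length, taken from the longest coding transcript in GENCODE M21, the median log2 fold change of E17 over E16 ran from 0.49 among the shortest transcripts to -0.40 among the longest, in 10 bins of equal gene number. The mitotic members had lengths of 1466 to 11130 bases (median 3526) and the replication members 1127 to 4614 bases (median 3031), and the largest falls were in long transcripts. Measured against the median of genes of like length, the mitotic median was -0.28 with 26 of 29 members below it, and the replication median was -0.05 with 11 below and 7 above. Against genes of like GC content, the mitotic median was -0.22 with 26 below, and the replication median was -0.12 with 13 below and 6 above. With the length trend removed from each library, a setting chosen after the data were seen, 25 mitotic members fell and 1 rose, and 7 replication members fell and 2 rose, while with the GC trend removed 20 mitotic members fell and none rose, and 10 replication members fell and 4 rose. With the length trend removed Gmnn was at -0.07, Cdc20 at -0.16 and Cenpa at -0.21, each turned in direction, and Pcna was at 0.03 and no longer called. The part of length in the stage result was not tested beyond these values.

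**Figure D5:**
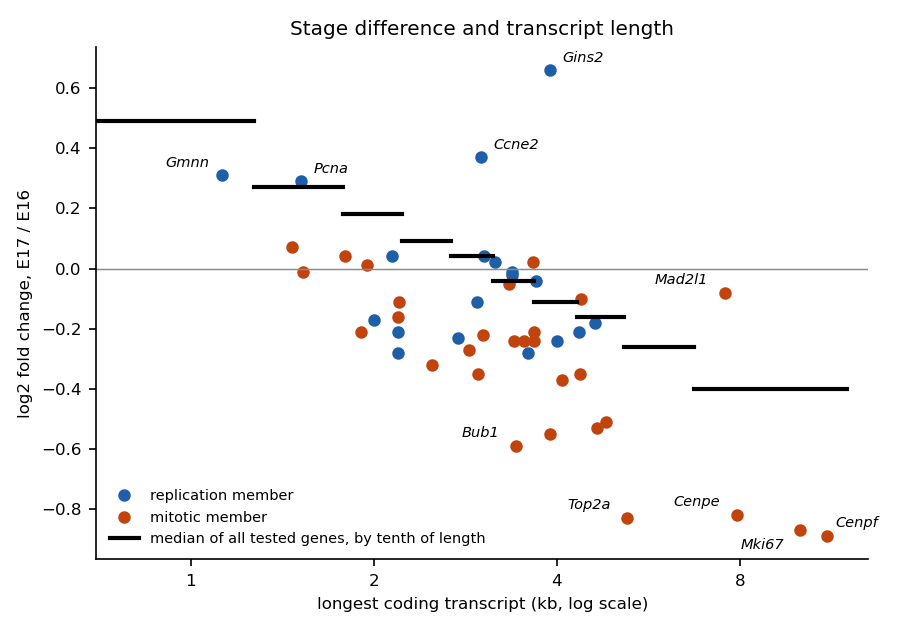
Log2 fold change of E17 over E16 for the 48 members against the length of the longest coding transcript in kilobases (log scale), with black bars at the median of all tested genes in each of 10 length bins (the outermost bars are cut at the edges of the axis). The bars run from 0.49 at the short end to -0.40 at the long end, and 26 of 29 mitotic members lie below the bar of their length.

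Upstream genes of the cycle also differed between the stages. Of the CDK inhibitors 4 of 6 rose at E17 and none fell, led by Cdkn2b (p15) at 0.87 ± 0.10 and Cdkn1a at 0.64 ± 0.07, each higher in 10 of 10 pairs, with Cdkn2d (0.31 ± 0.09) and Cdkn1b (p27, 0.16 ± 0.05) next. Of the G1 cyclins and their kinases 4 of 6 fell: Ccnd2 (cyclin D2) by 0.70 ± 0.05, Cdk6 by 0.54 ± 0.05, Ccnd1 by 0.33 ± 0.05 and Cdk2 by 0.11 ± 0.04, while Ccnd3 rose by 0.21 ± 0.07. Of 17 retinoblastoma, E2F and MuvB genes 10 fell and 3 rose. Beside these counts, 33.6% of all tested genes fell and 32.2% rose. Mybl1, a relative of Mybl2, fell by 0.98 ± 0.23 from a low level (2.05 ± 0.862 CPM at E17, 4.01 ± 1.36 CPM at E16), the repressor E2f7 fell by 0.51 ± 0.06, and Lin9 and E2f4 rose by 0.25 ± 0.06 and 0.20 ± 0.04.

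Of 32 further mitotic genes 23 fell and 2 rose, with the kinesin Kif14 (-0.84 ± 0.08) and the kinetochore scaffold Knl1 (-0.78 ± 0.09) lowest and Spc24 (0.57 ± 0.06), of the NDC80 complex, highest. Of 27 further replication genes 11 fell and 6 rose, with Pole, the catalytic subunit of polymerase epsilon (-0.61 ± 0.09), and Mcm10 (-0.49 ± 0.08) lowest and Dut, the dUTPase (0.27 ± 0.06), highest. Of all tested genes 33.6% fell and 32.2% rose. The counts of the further replication genes lay near these shares and are not read as a trait of that list. Among tested genes with a length, the median stage log2 fold change ran from 0.49 in the shortest transcripts to -0.4 in the longest. The fold changes of these further genes, and of the upstream genes above, are printed without adjustment for that trend. Whether their highest and lowest values go with transcript length was not tested.

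Cell type markers differed strongly between the stages. Of 10 epidermal markers 8 rose at E17, with sums of 38200 to 67500 CPM at E17 and 13400 to 28300 CPM at E16, which did not overlap. Of 10 cartilage markers 9 fell, with sums of 187 to 425 CPM at E17 and 416 to 1590 CPM at E16. Of 10 muscle markers 8 rose, of 7 erythroid markers 5 and of 8 macrophage markers 5, where 32.2% of all tested genes rose. Their part in the stage result was not tested.

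Along the digit, distal phalanges were compared with proximal phalanges in 8 matched pairs. Replication members were lower in the distal phalanx, 12 of 19 falling and none rising, where 23.4% of all tested genes fell. Of the mitotic members 3 of 29 fell and 1 rose, where 23.3% of all tested genes rose. These mitotic counts moved with the setting: with upper-quartile scaling, and with a filter of 10 CPM in 10 libraries, 5 fell and none rose, and without the E16 hindlimb digit 1 distal library 6 fell and none rose, without the E16 forelimb digit 2 distal library 5 fell and none rose, and without the E17 forelimb digit 2 distal library 2 fell and 1 rose. The median log2 fold change was -0.20 in the replication list and -0.06 in the mitotic list, against 0.01 over all tested genes. The replication mean was lower in the distal phalanx in 8 of 8 pairs, by 0.05 to 0.37, while the mitotic mean was lower in 4 pairs and higher in 4.

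All 4 G1/S regulators fell, and E2f1 and E2f8 had the lowest fold changes of the 48 members. E2f1, the activating E2F, had 12.6 to 26.6 CPM in distal phalanges (median 18.8) and 22.7 to 34.6 CPM in proximal phalanges (median 27), -0.59 ± 0.08 (edgeR adjusted p = 1.31e-05). E2f8 had 20.1 to 28.3 CPM in distal phalanges (median 23.1) and 27.6 to 36.8 CPM in proximal phalanges (median 31.6), -0.44 ± 0.07 (edgeR adjusted p = 6.87e-05). Both were lower in 8 of 8 pairs although the ranges over all libraries overlapped. Ccne2 fell by 0.30 ± 0.10 and Ccne1 by 0.26 ± 0.09, each in 6 of 8 pairs.

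Of the licensing genes 5 of 9 fell, all of them MCM subunits. Mcm6 was at -0.29 ± 0.04 and Mcm2 at -0.18 ± 0.06, the second a weak call (edgeR adjusted p = 0.0248) that was lost in turn without the E16 forelimb digit 1 distal (adjusted p = 0.0608), the E17 forelimb digit 2 proximal (0.0622) or the E17 hindlimb digit 2 distal library (0.0595). Among fork and nucleotide genes Gins2, Rrm1 and Rrm2 fell. Gmnn had the highest value of the list, 0.15 ± 0.08, with 12.7 to 21.3 CPM in distal phalanges (median 16.4) and 9.91 to 17.2 CPM in proximal phalanges (median 16.9), and was not called. Pcna (-0.06 ± 0.04) and Tyms (-0.05 ± 0.04) were not called either.

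The mitotic members that fell in the distal phalanx were Mybl2 by 0.31 ± 0.09, the central spindle kinesin Kif23 by 0.21 ± 0.07 and Prc1, which bundles spindle midzone microtubules, by 0.16 ± 0.05. Ube2c, the E2 enzyme of the APC/C, rose by 0.12 ± 0.05 (edgeR adjusted p = 0.0457) with 64.1 to 113 CPM in distal phalanges (median 90.6) and 65.6 to 95.6 CPM in proximal phalanges (median 80.5). That call did not hold with upper-quartile scaling (0.08, edgeR adjusted p = 0.178). Mki67 (-0.10 ± 0.12), Top2a (-0.04 ± 0.08) and Cdk1 (-0.07 ± 0.05) were not called. Their distal libraries were wide apart, Mki67 from 130 CPM in the E17 forelimb digit 1 to 480 CPM in the E16 hindlimb digit 1.

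The balance of mitotic over replication transcripts was higher in the distal phalanx in 7 of 8 pairs, at 0.454 ± 0.213 in distal and 0.303 ± 0.137 in proximal phalanges (SD, n = 8 each), with overlapping ranges. With medians over the members it was higher in 5 of 8 pairs, and the mean difference was 0.06 in place of 0.15. The interaction of stage with position called no member (edgeR, lowest adjusted p = 0.264), with 1 replication and 2 mitotic members at an unadjusted p under 0.05. Of all 14872 tested genes it called only 12 higher and 21 lower, so the lack of member calls is near that share.

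Other genes of the cycle moved in both directions along the digit. Cdkn2b was at 1.49 ± 0.12 and Cdkn1a at 0.76 ± 0.07, higher in the distal phalanx in 8 of 8 pairs, while Cdkn1c (p57) fell by 0.81 ± 0.10 and Cdkn2c (p18) by 0.23 ± 0.09. Ccnd1 fell by 0.46 ± 0.05, Ccnd2 by 0.38 ± 0.05 and Cdk2 by 0.17 ± 0.04, and no G1 cyclin or kinase rose. The retinoblastoma gene Rb1 (0.68 ± 0.11) and Lin9 (0.59 ± 0.07) were highest among 6 that rose of 17 in their list, and E2f6 (-0.18 ± 0.06) and the dimerization partner Tfdp1 (-0.16 ± 0.04) were the 2 that fell. Of 27 further replication genes 7 fell and none rose, with the kinase Cdc7 lowest (-0.40 ± 0.07), and of 32 further mitotic genes 5 fell and 3 rose, with Kif4 lowest (-0.26 ± 0.06) and Nek2 highest (0.29 ± 0.07). Of all tested genes 23.4% fell and 23.3% rose. The fallen further replication genes lay near that share, and both further mitotic counts lay below it.

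Markers of other cell types moved with position too. All 7 nail keratin markers rose in the distal phalanx, with sums of 588 to 9300 CPM in distal and 9.95 to 30.5 CPM in proximal phalanges, and 4 of the 7 had no counts in 1 to 6 of the 20 libraries. Epidermal markers rose for 9 of 10 genes and erythroid markers for 6 of 7 (6050 to 21900 CPM in distal, 3430 to 7910 CPM in proximal phalanges). All 7 endothelial markers fell (220 to 286 CPM in distal, 387 to 501 CPM in proximal phalanges), as did all 8 macrophage markers, 5 of 6 tendon markers and 5 of 10 cartilage markers. Of 6 bone markers 4 rose and 1 fell, with a median log2 fold change of 2.07. Their sum, mostly Col1a1, was 2300 to 4520 CPM in distal and 3430 to 9940 CPM in proximal phalanges. Of all tested genes 23.3% rose and 23.4% fell. Their part in the position result was not tested.

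The middle phalanx of digit 2 and the comparison of the digits gave no calls. Middle against proximal (4 pairs), edgeR called 0 of 48 members, with 0 replication and 3 mitotic members at an unadjusted p under 0.05, and DESeq2 also called 0, where 1.85% of all tested genes were higher and 1.93% lower. Digit 1 against digit 2, edgeR called 0 members with 0 at an unadjusted p under 0.05, and DESeq2 also called 0, where 0.955% of all tested genes were higher and 0.719% lower. The median log2 fold change was 0.10 in the mitotic list and -0.01 in the replication list for the middle phalanx, and 0.02 in both lists for digit 1.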

How the data were processed

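Whole-number read counts per gene symbol, deposited by the authors as 1 table per stage, were used for all 20 libraries. Per the submitters' processing notes, GRCm39, HISAT2 2.2.1 and StringTie 2.1.7 were used, with their roles, the counting step and the annotation not given in the sources used here. Per the labels' protocols, the library kit is not described as strand-specific, so overlapping antisense transcripts are not separated. The deposited TMM-normalised tables were scaled within each stage and were not used. Rows were joined by symbol, 23932 genes written alike and 58 through synonyms, holding 99.03% to 99.48% of each library's counts. No value column was left unmapped. The members, lists and named-gene rule were chosen with earlier results of these data known.

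The filter kept genes that reached 1 CPM in 4 or more libraries, and these were tested with edgeR 4.0.16 in R 4.3.3, using TMM factors over all 20 libraries, terms for element (phalanx and digit), stage and limb, 13 residual degrees of freedom, quasi-likelihood F tests (two-sided) and Benjamini-Hochberg adjustment at 0.05 over all tested genes. Interactions were fitted by adding 1 product term at a time. DESeq2 1.42.0 was an alternative. The pipeline was tested on simulated data. List means are means of log2 CPM with a prior count of 2. With 1 library per combination, p-values measure the spread between matched libraries, which may be technical. In the additive fit that spread also holds any real effect of 1 factor that differs across the others. That spread (common biological coefficient of variation 18.5%) limits precision. Named genes were, in each comparison, the 3 highest and 3 lowest fold changes of each list, members called against their list's majority and 6 anchors (Mki67, Top2a, Cdk1, Tyms, Pcna, Mcm2), and for further pathway lists the 2 highest and 2 lowest among those called. Genes named beside these were named to complete their role group after their values were seen. Transcript lengths and GC content came from GENCODE M21, promoters from RefSeq (GRCm38.p6), and neither build is that of the counts. Near copies of 3 members (Pcna, Tyms, Ccnb1) are listed with few counts.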

Additional observations from a re-analysis of the deposited data

Results flagged for a closer look

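The mean log2 CPM of the 19 replication members was 5.675 in the distal phalanx of digit 2 of the E16 hindlimb, below the other 4 E16 hindlimb libraries, which lay between 5.822 and 5.871. Its gap to the nearest library, divided by the range of the 5, was 0.75 against a critical value of 0.71. Among like libraries chance flags about 1 in 20 such groups, and 32 were examined. The 5 libraries here were different phalanges, so that rate does not strictly hold. The replication mean was lower in the distal than in the proximal phalanx in 8 of 8 pairs. Without single libraries in turn, the limb count of replication members stayed between 16 and 17.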

How the results depend on the processing

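The counts of members called in the stage, limb, position, middle and digit comparisons stayed in total within 1.5 times under DESeq2, 2 other scalings, 2 other filters and other library sizes. So did those of stage and limb under other matching terms, and those of stage, limb and position with length or GC trends removed (chosen after seeing the data); middle and digit were not run under these. Split by direction, mitotic members lower in the distal phalanx numbered 5 with upper-quartile scaling and with the 10 CPM filter, in place of 3. The exception among the counts was the limb comparison within E17, where a fit on that stage alone called 5 members in place of 9. Scaled to unit SD over the libraries, the mitotic minus replication difference was -0.83 for stage and 0.61 for position, against -0.30 and 0.15 unscaled, in SD units and so not on the same scale. With medians over the members it was -0.37 for stage, 0.06 for position and -0.07 for limb, where the unscaled mean was 0.02 and the unit-SD value -0.02. With the length trend removed, Gmnn (-0.07), Cdc20 (-0.16) and Cenpa (-0.21) turned in direction for stage. Leaving out each library in turn, members called ranged from 18 to 24 (limb, mitotic), 16 to 17 (limb, replication), 20 to 21 (stage, mitotic), 10 to 13 (stage, replication), 9 to 13 (position, replication) and 3 to 6 (position, mitotic, of which 2 to 6 lower), and stayed at 0 for the middle phalanx and the digits. Of the single named genes, 622 of their values under other settings kept their call, 9 gained it and 6 lost it, and 3 turned. Fits with each matched pair as its own term called 20 mitotic and 12 replication members for stage, against 20 and 12, and 20 and 16 for limb, against 22 and 16. A replicate block could not be fitted, since each group holds 1 library.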
